A study of Sus scrofa with 6 samples.

Results

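The genes described here encode the TET, JmjC and ALKBH dioxygenases, which act on DNA, RNA, histones and other nuclear proteins, together with a few JmjC or ALKBH proteins that act elsewhere in the cell. They were taken as the rows of the count table whose gene symbol was among 36 listed names. A row was found for 33 of them among the 17670 genes of the table, and 32 were among the 12701 genes that passed the filter on low counts. TET2, KDM2B and KDM5C were not analysed here. HR, a nuclear receptor corepressor of the KDM3 family, had 4, 2 and 1 reads in the AA2P libraries and 5, 1 and 2 reads in the control libraries, too few to be tested.

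The cultured cells, from pig fetuses of 80 to 90 days of gestation, are labelled as immature Sertoli cells, which in the testis line the tubule and nurse the germ cells. Cells of the AA2P group (3 libraries) received 250 µM L-ascorbic acid 2-phosphate (AA2P, as the sesquimagnesium salt hydrate), a stable form of vitamin C, after 6 h of culture, and cells of the control group (3 libraries) are labelled as control only. Both groups were grown in minimum essential medium with fetal bovine serum and antibiotics, while for how long AA2P was left on the cells is not stated in the labels. The comparison asks how expression in these cells differed with AA2P. No label says whether the libraries of 1 group stem from separate animals or cultures, so a p-value here covers only the spread seen among these 6 samples, part of which may be technical.

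Enzymes of this superfamily bind iron and use 2-oxoglutarate and oxygen to hydroxylate a substrate, which removes a methyl group when the hydroxylated product falls apart. Ascorbate keeps the iron of many of them in its reduced state, and TET and JmjC enzymes in cultured cells are known to be more active when it is supplied. That effect is on the enzymes and is not measured by RNA sequencing, which reads only the level of each transcript. Some of the genes, KDM3A, KDM4B and KDM4C among them, have been reported in other cells as targets of the hypoxia-inducible factors (HIF).

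Library totals ran from 18747307 to 23122000 counts with AA2P and from 19299585 to 23521291 counts in controls, and a level of 3 counts corresponded to 0.123 to 0.165 CPM (counts per 1000000 counts), for counting error only. CPM values here are scaled with TMM factors, which assume that most genes keep their level. The factors differed by group, at 1.05 to 1.07 with AA2P and 0.941 to 0.945 in controls. The markers of these libraries go in part against the labelled cell type. Of 12 Sertoli cell markers 9 had a row. DHH and INHA had at most 3 counts in every library, NR5A1 at most 5 and AMHR2 at most 12, while AMH was at 34.5 ± 2.35 CPM with AA2P and 36.4 ± 1.52 CPM in controls (SD, n = 3 each). SOX9, WT1, CLU and KRT18 passed the test as lower with AA2P, and the summed level of the list ran from 1330 to 1910 CPM with AA2P and from 4480 to 4810 CPM in controls, most of it CLU. All 8 kidney and mesonephric tubule markers with a row passed as higher, with sums of 1010 to 1330 CPM with AA2P and 334 to 382 CPM in controls. Sums of the other marker lists were 293 to 345 CPM with AA2P and 413 to 419 CPM in controls for smooth muscle, 6.36 to 7.38 CPM with AA2P and 5.58 to 5.84 CPM in controls for Leydig cells, and 6.08 to 8.03 CPM with AA2P and 2.03 to 2.87 CPM in controls for endothelium. The smooth muscle sum was mostly TAGLN. TAGLN and DES passed as lower and CNN1 as higher, while ACTA2 and MYH11 were too low to be tested. Only 3 of 6 Leydig and 2 of 5 endothelial markers had a row. Nearly all of those 2 sums was a single gene each, STAR, which missed the threshold, and PECAM1, which passed as higher. Macrophage and germ cell markers with a row summed to under 0.5 CPM in every library, and CYP17A1, INSL3, MYH11, CSF1R and CD163 had at most 3 counts in each. The labelled identity is therefore in doubt, and the libraries are called here by their treatment. The part of these shifts in the results below was not tested, and in bulk samples fewer cells of a type and less RNA per cell cannot be told apart.

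Of the 32 tested dioxygenase genes 14 fell and 5 rose with AA2P by edgeR's quasi-likelihood test at a Benjamini-Hochberg adjusted p of 0.05. That is 59.4% of them, close to the 52.1% of all tested genes that passed. The share that fell was 43.8%, against 26.1% of all tested genes, and the share that rose was 15.6%, against 26.0%. Scaled by library totals instead of TMM factors, 7 fell and 13 rose, that is 21.9% and 40.6%, against 14.3% and 45.1% of all tested genes, and the median of all genes moved by 0.17 on the log2 scale. The largest drops were in KDM3A, KDM6B, KDM4B, JARID2, RIOX2 and TET3 and the largest rise was in ALKBH3, all called under both scalings. CPM of the 3 AA2P and the 3 control libraries did not overlap for 21 of the 32 genes (65.6%), against 59.3% of all tested genes. The AA2P libraries lay above in 7 of the 32, against 29.8% of all tested genes, and below in 14 of the 32, against 29.5%. At an adjusted p of 0.01, 12 of the 32 were called, against 40.1% of all tested genes.

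**Figure D1:**
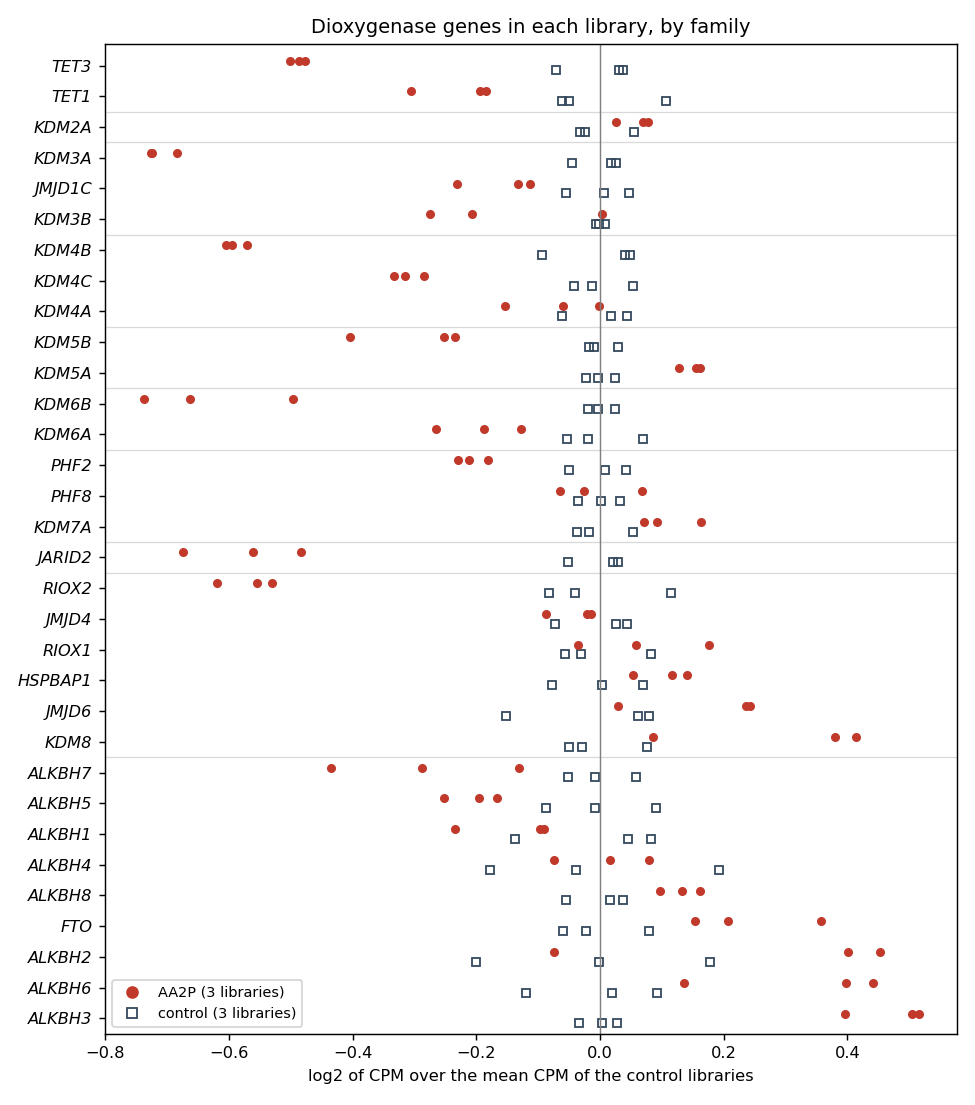
Each row is 1 dioxygenase gene, grouped by family with grey lines between families, and the horizontal axis is the log2 of a library's CPM over the mean CPM of the control libraries, with filled circles for the 3 AA2P and open squares for the 3 control libraries. AA2P libraries lie farthest left for KDM3A and KDM6B and farthest right for ALKBH3.

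The changes were small. Log2 fold changes, AA2P over control, ran from -0.71 for KDM3A to 0.47 for ALKBH3, with a median of -0.10 and a median size of 0.21, against a median of 0 and a median size of 0.23 over all tested genes. None of the 19 called dioxygenase genes changed 2-fold, while 9.01% of all tested genes were called and changed at least 2-fold. KDM3A still lay toward the edge of the distribution, since 6.24% of tested genes had a lower log2 fold change. For ALKBH3, 13.5% of tested genes had a higher one.

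**Figure D2:**
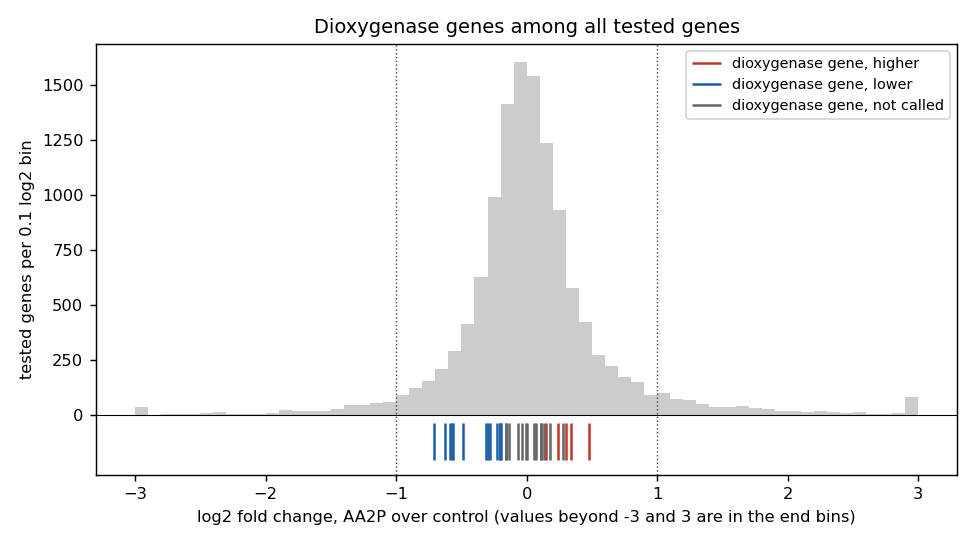
Grey bars count tested genes by log2 fold change, AA2P over control, in bins of 0.1, and ticks under them mark the 32 dioxygenase genes as higher, lower or not called. All ticks lie between the dotted lines at a 2-fold change, from -0.71 to 0.47.

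TET enzymes oxidise 5-methylcytosine in DNA, the first step of active demethylation, and both that were measured fell. TET3 was at 82.0, 83.3 and 82.8 CPM in the AA2P libraries and at 119, 110.4 and 118.5 CPM in the control libraries. The groups lay well apart, with the AA2P libraries within 2 CPM of each other, and the log2 fold change was -0.49 ± 0.05 (SE; edgeR's quasi-likelihood test, adjusted p = 6.3e-07), or -0.32 with library totals. TET1 averaged 49.4 ± 2.26 CPM with AA2P and 57.8 ± 3.83 CPM in controls (SD, n = 3 each), a log2 fold change of -0.23 ± 0.06 that shrank to -0.06 and missed the threshold with library totals. Reads of TET3 per read of TET1, a ratio that no scaling of the libraries can move, were 1.61, 1.65 and 1.77 with AA2P and 2.15, 1.98 and 1.91 in controls, so TET3 was the lower relative to TET1 in all 3 AA2P libraries.

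KDM3 enzymes remove mono- and dimethyl marks from histone H3 lysine 9, and KDM3A had the smallest p-value of all the dioxygenase genes. KDM3A was at 67.4, 65.5 and 65.5 CPM with AA2P and at 104.9, 109.7 and 110.3 CPM in controls. No AA2P library came near a control library, and the gene fell 1.64-fold, a log2 fold change of -0.71 ± 0.05 (edgeR's quasi-likelihood test, adjusted p = 6.7e-09), or -0.54 with library totals. Its relatives moved less. JMJD1C, a large member of the family, averaged 234.9 ± 10.2 CPM with AA2P and 262 ± 9.28 CPM in controls (SD, n = 3 each), and its log2 fold change of -0.16 turned to 0.01 with library totals and lost its call without AA2P replicate 2, control replicate 2 or control replicate 3. KDM3B averaged 25.4 ± 2.59 CPM with AA2P and 28.2 ± 0.145 CPM in controls, with 1 AA2P library inside the control range, and missed the threshold with a 95% interval of -0.32 to 0.01 for the log2 fold change. Reads of KDM3A per read of JMJD1C were 0.278, 0.293 and 0.274 with AA2P and 0.416, 0.417 and 0.408 in controls, 31.8% lower with AA2P, and reads of KDM3A per read of KDM3B were 31.6% lower.

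KDM4 enzymes act on trimethylated lysines 9 and 36 of histone H3, and KDM4B fell furthest. It was at 46.2, 45.1 and 45.5 CPM with AA2P and at 70.6, 71.0 and 64.3 CPM in controls. The AA2P libraries were nearly alike and lay below every control library, and the log2 fold change was -0.59 ± 0.06 (edgeR's quasi-likelihood test, adjusted p = 3.5e-07), or -0.42 with library totals. KDM4C averaged 42.4 ± 0.725 CPM with AA2P and 52.6 ± 1.79 CPM in controls (SD, n = 3 each), a log2 fold change of -0.31 ± 0.06, or -0.14 with library totals, where it was still called. KDM4A averaged 153.6 ± 8.13 CPM with AA2P and 161.2 ± 6.12 CPM in controls, groups that overlapped, and missed the threshold with an interval of -0.18 to 0.04. Relative to KDM4A, KDM4B had 0.319, 0.292 and 0.282 reads per read with AA2P and 0.433, 0.428 and 0.417 in controls. The 3 genes of this family and of KDM3 that have been reported as HIF targets, KDM3A, KDM4B and KDM4C, were called lower under both scalings, as were 26.1% of all tested genes with TMM factors and 14.3% with library totals, and the trio was picked with these results known.

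**Figure D3:**
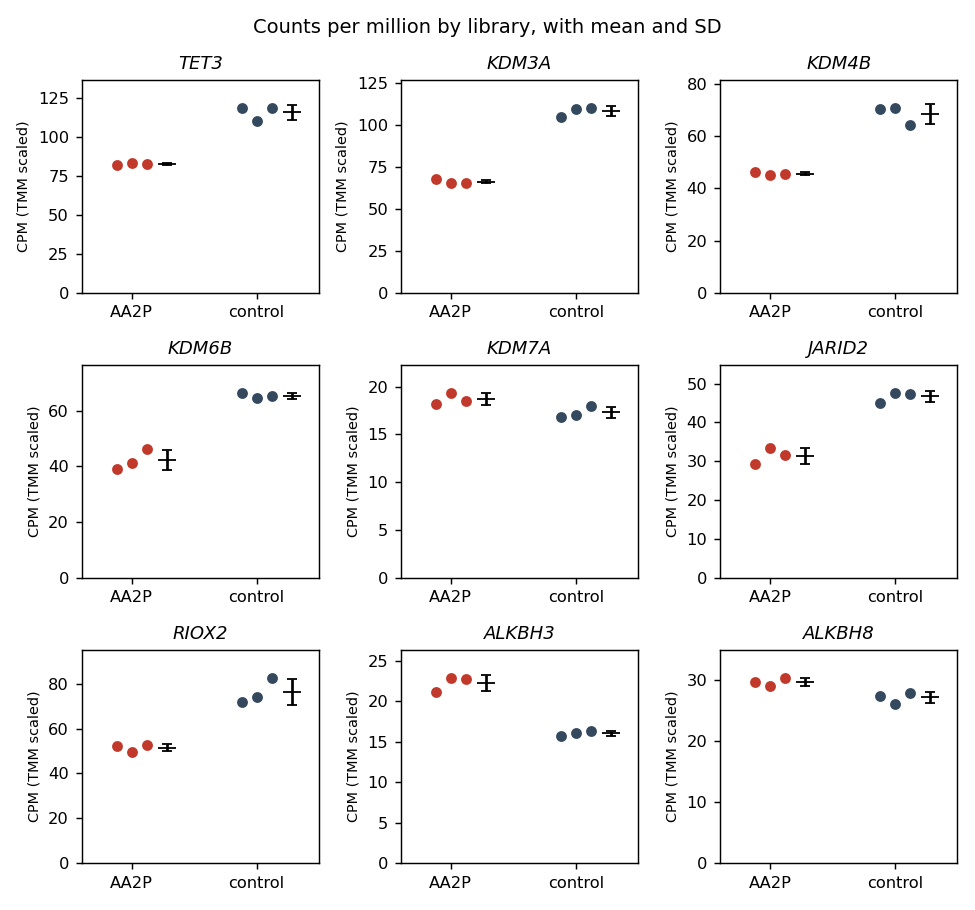
Points are the TMM-scaled CPM of single libraries, AA2P left and control right in each panel, and bars are the mean and SD (n = 3) for the 7 called genes with a log2 fold change of at least 0.4 in size and for KDM7A and ALKBH8, which missed the threshold although their groups do not overlap. All AA2P points lie below all control points in TET3, KDM3A, KDM4B, KDM6B, JARID2 and RIOX2 and above them in KDM7A, ALKBH3 and ALKBH8.

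KDM5 enzymes remove methyl groups from histone H3 lysine 4, and the 2 that were measured went opposite ways. KDM5B averaged 102 ± 6.47 CPM with AA2P and 125 ± 2.15 CPM in controls (SD, n = 3 each), a log2 fold change of -0.30 ± 0.055 that shrank to -0.13 and missed the threshold with library totals. KDM5A averaged 88.2 ± 1.13 CPM with AA2P and 79.6 ± 1.30 CPM in controls, a log2 fold change of 0.15 ± 0.05, or 0.32 with library totals. Reads of KDM5B per read of KDM5A were 1.19, 1.20 and 1.09 with AA2P and 1.58, 1.61 and 1.54 in controls, 26.5% lower with AA2P in a ratio free of scaling. The call of KDM5A was lost without AA2P replicate 2, control replicate 1 or control replicate 2, where its log2 fold change was 0.141, 0.135 and 0.145.

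KDM6 enzymes erase methyl marks on histone H3 lysine 27, which the Polycomb complex PRC2 writes. KDM6B, the inducible member in many cell types, was at 39.2, 41.3 and 46.35 CPM with AA2P and at 66.5, 64.5 and 65.2 CPM in controls. AA2P library 3 was the nearest to the controls, still below every control library, and the log2 fold change was -0.63 ± 0.065 (edgeR's quasi-likelihood test, adjusted p = 5.6e-07), or -0.46 with library totals and -0.70 without AA2P replicate 3. KDM6A, the X-linked member, averaged 34.6 ± 1.64 CPM with AA2P and 39.5 ± 1.75 CPM in controls (SD, n = 3 each), a log2 fold change of -0.19 that shrank to -0.02 with library totals and lost its call without AA2P replicate 2, AA2P replicate 3 or control replicate 3. JARID2, which lacks the iron-binding residues of the active enzymes and recruits PRC2 to chromatin, was at 29.3, 33.4 and 31.7 CPM with AA2P and at 45.1, 47.7 and 47.4 CPM in controls. Every AA2P library lay well below every control library, and its log2 fold change was -0.57 ± 0.07 (adjusted p = 1.8e-06 by the same test), or -0.40 with library totals. So a fall of similar size was measured in KDM6B, an eraser of the mark, and in JARID2, a partner of its writer.

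KDM2A and the PHF proteins changed little. KDM2A, a histone H3 lysine 36 demethylase that binds CpG islands, averaged 144 ± 2.76 CPM with AA2P and 138 ± 4.67 CPM in controls (SD, n = 3 each) and missed the threshold. PHF2, a lysine 9 demethylase of promoters, averaged 42.3 ± 0.712 CPM with AA2P and 48.9 ± 1.55 CPM in controls, a log2 fold change of -0.21 that shrank to -0.04 and missed the threshold with library totals. PHF8, which also acts on lysine 9, was at 50.4 ± 2.38 CPM with AA2P and 50.7 ± 1.20 CPM in controls, with an interval of -0.13 to 0.12 for the log2 fold change. KDM7A was at 18.17, 19.37 and 18.45 CPM with AA2P and at 16.86, 17.08 and 17.96 CPM in controls, groups that did not overlap by a narrow margin, and it missed the threshold at a log2 fold change of 0.11 ± 0.08. With library totals KDM2A, PHF8 and KDM7A were called higher, at log2 fold changes of 0.23, 0.16 and 0.28.

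The remaining JmjC proteins are mostly hydroxylases of proteins other than histones, and RIOX2 stood out among them. RIOX1 and RIOX2 hydroxylate histidines of ribosomal proteins. RIOX2 was at 52.0, 49.7 and 52.9 CPM with AA2P and at 72.1, 74.3 and 82.7 CPM in controls. The 3 AA2P libraries lay close together below all controls, and the log2 fold change was -0.57 ± 0.06 (edgeR's quasi-likelihood test, adjusted p = 1.1e-06), or -0.40 with library totals. RIOX1 averaged 28.8 ± 2.13 CPM with AA2P and 27.4 ± 1.42 CPM in controls (SD, n = 3 each) and missed the threshold, and reads of RIOX2 per read of RIOX1 were 1.95, 1.74 and 1.71 with AA2P and 2.48, 2.77 and 3.14 in controls. Relative to RIOX1, RIOX2 was thus lower in every AA2P library than in any control library.

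KDM8, an arginine hydroxylase first described as a demethylase, rose to 16.2 ± 1.96 CPM with AA2P, against 13.2 ± 0.626 CPM in controls (SD, n = 3 each), a log2 fold change of 0.30 ± 0.10, or 0.47 with library totals. AA2P replicate 1, at 14.0 CPM, all but touched the highest control, at 13.9 CPM, and the call was lost without AA2P replicate 2, control replicate 2 or control replicate 3. JMJD6, a lysine hydroxylase of splicing factors, JMJD4, which hydroxylates a translation release factor, and HSPBAP1, a partner of a small heat shock protein, missed the threshold with groups that overlapped and log2 fold changes of 0.18, -0.04 and 0.11. With library totals JMJD6, HSPBAP1 and RIOX1 were called higher, at 0.345, 0.275 and 0.239, and JMJD4 turned to 0.13 without a call.

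**Figure D4:**
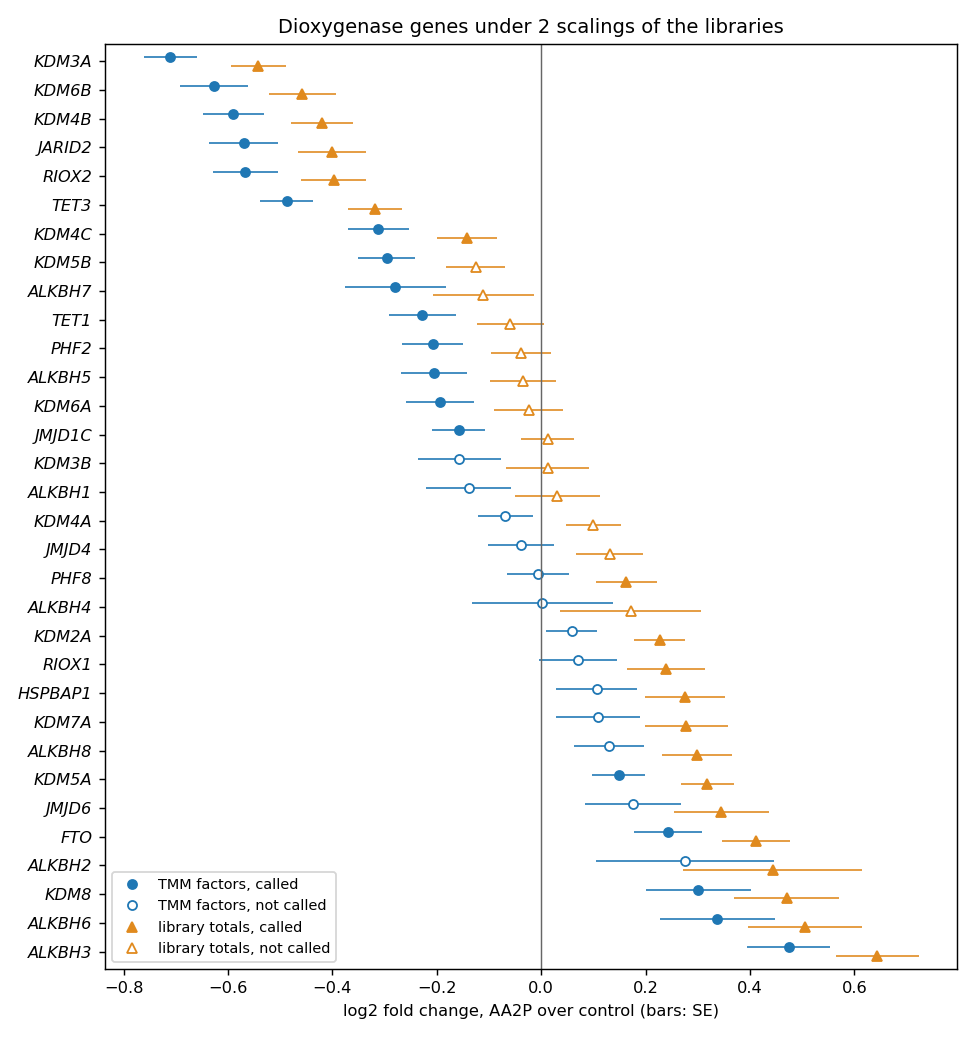
Each row is 1 dioxygenase gene, ordered by its log2 fold change, AA2P over control, and circles use TMM factors and triangles library totals, filled where the adjusted p is under 0.05, with bars for the SE. Library totals move every gene to the right by about 0.17, which leaves 7 genes called lower and 13 called higher.

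The ALKBH family repairs alkylated DNA and edits RNA, and 3 of its 9 tested genes rose and 2 fell, or 33.3% and 22.2%, beside 26.0% and 26.1% of all tested genes. Of the 21 tested JmjC genes 2 rose and 10 fell, or 9.52% and 47.6%. With library totals 5 ALKBH genes were called higher, or 55.6%, and none lower. For JmjC genes 8 were higher and 6 lower, or 38.1% and 28.6%, beside 45.1% and 14.3% of all tested genes. The difference between the families was not tested. ALKBH3, which repairs alkylated single-stranded DNA and RNA, was at 21.1, 22.9 and 22.8 CPM with AA2P and at 15.7, 16.1 and 16.4 CPM in controls. All AA2P libraries lay above all controls, and the gene rose 1.39-fold, a log2 fold change of 0.47 ± 0.08 (edgeR's quasi-likelihood test, adjusted p = 9.3e-05), or 0.64 with library totals. ALKBH2, which acts on double-stranded DNA, had few reads, at 4.30 ± 0.813 CPM with AA2P and 3.55 ± 0.463 CPM in controls (SD, n = 3 each), and missed the threshold with a wide interval of -0.09 to 0.64, though it was called with library totals.

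FTO and ALKBH5, the 2 enzymes that demethylate N6-methyladenosine (m6A) in RNA, moved apart. FTO was at 58.4, 67.2 and 60.6 CPM with AA2P and at 50.3, 55.4 and 51.7 CPM in controls. All AA2P libraries were above all controls, and the log2 fold change was 0.24 ± 0.065 (edgeR's quasi-likelihood test, adjusted p = 0.00512), or 0.41 with library totals. ALKBH5 averaged 43.9 ± 1.31 CPM with AA2P and 50.6 ± 3.15 CPM in controls (SD, n = 3 each), a log2 fold change of -0.205 ± 0.06 that shrank to -0.035 with library totals and lost its call there and without control replicate 1. Reads of ALKBH5 per read of FTO were 0.727, 0.670 and 0.729 with AA2P and 1.07, 0.907 and 0.920 in controls, 26.6% lower with AA2P whatever the scaling.

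The other ALKBH genes changed by less or with less certainty. ALKBH6, whose substrate is not well established, averaged 11.6 ± 1.28 CPM with AA2P and 9.20 ± 0.676 CPM in controls (SD, n = 3 each), a log2 fold change of 0.34 ± 0.11, and lost its call without AA2P replicate 2 or control replicate 1. ALKBH7, a mitochondrial protein, averaged 12.6 ± 1.33 CPM with AA2P and 15.2 ± 0.583 CPM in controls, a log2 fold change of -0.28 ± 0.10 that shrank to -0.11 with library totals, and lost its call there and without AA2P replicate 1, control replicate 1 or control replicate 2. ALKBH8, which modifies wobble uridines of transfer RNA, was at 29.74, 29.04 and 30.36 CPM with AA2P and at 27.45, 26.12 and 27.86 CPM in controls. Its groups did not overlap, yet it missed the threshold at a log2 fold change of 0.13 ± 0.07, and it was called with library totals at 0.30. ALKBH1, a transfer RNA demethylase, and ALKBH4, which acts on actin, missed the threshold with groups that overlapped, at log2 fold changes of -0.14 and 0.00, and turned to 0.03 and 0.17 with library totals.

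**Figure D5:**
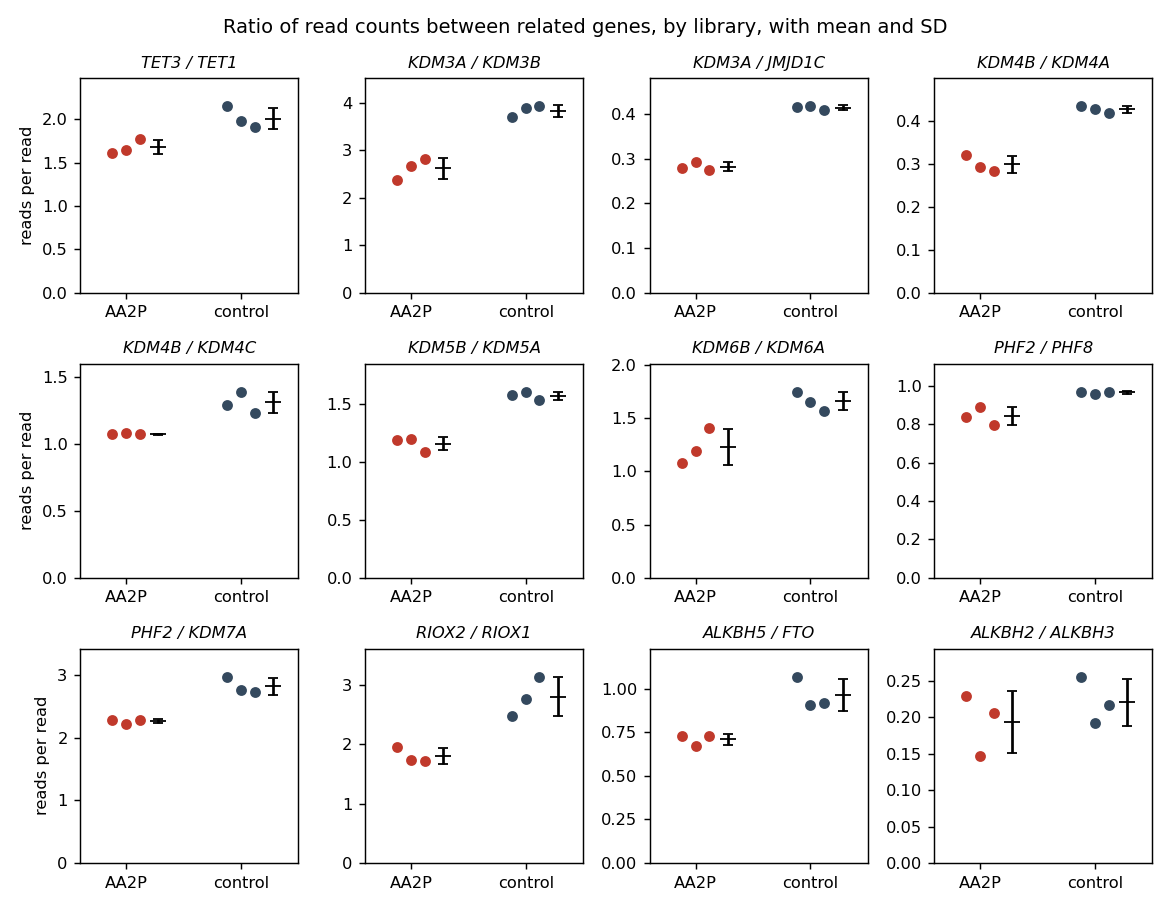
Points are the reads of 1 gene per read of a related gene in each library, AA2P left and control right, with bars for the mean and SD (n = 3), and a ratio within a library does not depend on how libraries are scaled. The groups do not overlap in 11 of the 12 pairs, the exception being ALKBH2 over ALKBH3.

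The mean ratio was lower with AA2P in all 12 pairs drawn, because the gene with the lower log2 fold change was put on top, and the pairs were chosen after their values were seen. Each ratio restates how far apart the log2 fold changes of its genes lie, in a form free of scaling. Ratios of other gene pairs were not computed, so the sizes have no background to be read against. Among the 12 pairs the shift was largest for RIOX2 over RIOX1, 35.7% lower, and for KDM3A over JMJD1C and over KDM3B. KDM6B per read of KDM6A was 1.08, 1.19 and 1.41 with AA2P and 1.75, 1.65 and 1.57 in controls, 25.9% lower. PHF2 over PHF8, 12.8% lower, was the smallest shift among the pairs whose groups did not overlap. A ratio shows unequal change and not which of the genes changed.

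Of the 19 calls, 9 held under each of the 13 alternatives run on single genes. They were KDM3A, KDM4B, KDM4C, KDM6B, JARID2, RIOX2 and TET3, which fell, and ALKBH3 and FTO, which rose. KDM5B, PHF2 and TET1 lost their calls with library totals alone. How many of the calls over all tested genes held in the same way was not counted. AA2P library 3 lay nearer the controls over the transcriptome than the other AA2P libraries, with mean correlations of log2 CPM to the control libraries of 0.970, against 0.959 and 0.961 for AA2P libraries 1 and 2, across genes that are not independent replicates. Among the 19 called dioxygenase genes it was the AA2P library nearest the control mean in 3, KDM5A, KDM6B and RIOX2, or 15.8%, against 54.7% of all called genes. Without it 18 dioxygenase genes were called, against 19 with it. Over all tested genes 6875 of 12808 were called without it, against 6615 of 12701 with it.

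Other genes of the same pathways are given by list, each to be read beside the 52.1% of all tested genes that were called, or 59.4% with library totals. By direction 26.0% of all tested genes rose and 26.1% fell, or 45.1% and 14.3% with library totals. Calls mostly higher with library totals are thus seen over all genes too, and no list was tested against the rest. Of 5 genes for DNA methylation and its upkeep 2 rose and none fell, about a median log2 fold change of 0.04. They were DNMT3B, a de novo methyltransferase, at 31.8 ± 2.14 CPM with AA2P and 20.4 ± 2.79 CPM in controls, and UHRF1, a partner of maintenance methylation, at 91.4 ± 3.82 CPM with AA2P and 75.4 ± 5.18 CPM in controls (SD, n = 3 each). The log2 fold change of DNMT3B, 0.64 ± 0.09, was opposite in sign to those of TET1 and TET3. DNMT3A, DNMT1 and UHRF2 missed the threshold, at log2 fold changes of -0.15, -0.06 and 0.04, so DNMT3A and DNMT1 had the sign of the TET genes. Of 11 readers of 5-methylcytosine and glycosylases and nucleases that excise its oxidised forms 1 rose and 2 fell, about a median of -0.03. NEIL2, a DNA glycosylase, rose to 5.98 ± 1.14 CPM with AA2P, against 2.07 ± 0.176 CPM in controls, while MBD1, a methyl-CpG binder, and the glycosylase NEIL3 fell by 0.27 and 0.31 on the log2 scale. With library totals 3 genes of the first list and 3 of the second were called, all higher.

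Lysine demethylases that use flavin in place of iron went opposite ways. KDM1B was at 89.5, 84.8 and 78.9 CPM with AA2P and at 54.7, 52.1 and 58.4 CPM in controls, a log2 fold change of 0.615 ± 0.06, while KDM1A was at 29.7, 28.8 and 32.5 CPM with AA2P and at 45.5, 45.7 and 43.9 CPM in controls, a log2 fold change of -0.57 ± 0.065. The groups of both lay well apart. Their list, which holds CoREST and deacetylase subunits too, had 1 rise and 3 falls among 7 genes and a median of -0.19, and RCOR1, the CoREST scaffold, fell by 0.39 on the log2 scale. Library totals gave 2 rises and 2 falls.

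Among 24 histone H3 lysine methyltransferases there were 3 rises and 6 falls about a median of 0.01, or 16 rises and 3 falls when libraries were scaled by their totals. KMT2E and KMT2C fell by 0.55 and 0.41 on the log2 scale, and EHMT2, which writes lysine 9 dimethylation, rose by 0.41. PRC2 had 1 rise and 2 falls among 9 subunits and a median of -0.115, or 4 rises and no fall with library totals and 1 call without control replicate 3. EZH1 and AEBP2 fell by 0.26 each and PHF19 rose by 0.18, while the catalytic subunit EZH2 was at 39.8 ± 1.41 CPM with AA2P and 39.2 ± 2.53 CPM in controls (SD, n = 3 each). None of 8 PRC1.1 subunits passed edgeR's test, with DESeq2 and limma-voom also at 0 and no unadjusted p under 0.05, and 5 were called higher with library totals. Of 6 tested genes of the KMT2C and KMT2D complex, in which KDM6A is a subunit, KMT2C alone passed, against 3 higher and 1 lower with library totals and 2 calls without AA2P replicate 1.

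Of 10 genes that write m6A 1 rose and 1 fell, with log2 fold changes of 0.15 for RBM15 and -0.15 for WTAP and a median of 0.00, and METTL3, the catalytic subunit, was at 47.7 ± 1.80 CPM with AA2P and 48.6 ± 0.684 CPM in controls (SD, n = 3 each). No writer was called without AA2P replicate 2, control replicate 1 or control replicate 3, 1 was called without control replicate 2, and 1 with no filter on low counts. Of 7 tested readers YTHDC2 and YTHDF3 rose by 0.24 and 0.16 on the log2 scale and IGF2BP2 fell by 0.18, with a median of 0.03. With library totals 7 writers and 5 readers were called higher and none lower. Among 5 genes of direct and ALKBH3-linked alkylation repair ASCC1 alone passed and fell by 0.33, while ASCC3, the helicase partner of ALKBH3, was at 351 ± 5.87 CPM with AA2P and 331 ± 2.15 CPM in controls. The median of that list was 0.00, and with library totals 3 of its genes were called higher and 1 lower, while 2 were called without AA2P replicate 3 or control replicate 3.

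Enzymes that make or use 2-oxoglutarate, the shared cosubstrate, and those that handle its competitors succinate, fumarate and 2-hydroxyglutarate gave 4 rises and 3 falls among 15 genes, with a median log2 fold change of 0.075. IDH1, the cytosolic isocitrate dehydrogenase, averaged 177 ± 12.9 CPM with AA2P and 115 ± 3.48 CPM in controls (SD, n = 3 each), a log2 fold change of 0.61 ± 0.06, and the mitochondrial IDH2 rose by 0.43 on the same scale. IDH3A, a subunit of the NAD-linked enzyme, fell by 0.25. With library totals 11 genes of the list were called higher and none lower. Of 4 other JmjC genes with a row HIF1AN, the asparagine hydroxylase of HIF, and JMJD8 rose by 0.20 and 0.37 and TYW5, a transfer RNA hydroxylase, fell by 0.36, and KDM5D, the Y-linked member of the KDM5 family, missed the threshold. With library totals HIF1AN and JMJD8 were called higher and no gene of that list was called lower.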

How the data were processed

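Total RNA of cultured pig immature Sertoli cells was isolated with TRIzol and sequenced on a HiSeq X-Ten, per the labels' protocols. The tools named are bcl2fastq, which writes reads from sequencer output, and the spliced aligner HISAT2 2.0.5, per the submitters' processing notes. Neither the program that counted the reads nor its strand setting, annotation or build is given in the sources used here. Deposited values were raw counts, whole numbers per Ensembl gene, from which every other value was computed. Symbols came from a table of gene names, which matched 13141 of 17670 identifiers. In RefSeq's Sscrofa11.1 gene table the span of 12 of the 33 genes with a row overlaps another gene, among them TET1, TET3, KDM4B, KDM6B, JMJD1C, KDM5A, PHF2, RIOX1, RIOX2, ALKBH2, ALKBH3 and ALKBH4, so their counts are uncertain where reads of the neighbour could be counted. Levels were not compared between genes, since no transcript lengths were at hand, and no sequences are shown.

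Tests used R 4.3.3 and edgeR 4.0.16 with TMM factors, filterByExpr by group, group as the only model term, the quasi-likelihood F test and Benjamini-Hochberg adjustment over all 12701 genes tested, with a threshold of 0.05. A standard error is the size of the log2 fold change divided by the root of F, and 95% intervals use the moderated degrees of freedom. The library nearest the control mean was found on log2(CPM + 0.1). On counts simulated with few changed genes, 22 of 200 calls among 12605 tested genes were false, or 11%, more than a threshold of 0.05 aims at. In the data 52.1% of all tested genes were called, so that share cannot be carried over to the calls given here. No pair of replicates was as close as sampling noise alone would make it (chi-square over its degrees of freedom 2.69 to 12.2).

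Values per library are given for called dioxygenase genes with a log2 fold change of at least 0.4 in size. They are also given for uncalled dioxygenase genes whose groups do not overlap. Up to 3 called genes of smallest p are given for each context list, mostly without values per library. KDM5B, KDM6A, FTO and the other genes and ratios printed beyond that rule were chosen after their values were seen. The genes and lists were chosen with earlier results of these data known. Alternatives were DESeq2 size factors, library totals, no filter, 1 CPM in 3 libraries, limma-voom (limma 3.58.1), the Wald test of DESeq2 1.42.0, a block for the replicate number, leaving out each library in turn, and an adjusted p of 0.01.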

Additional observations from a re-analysis of the deposited data

How the results depend on the processing

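Scaling by library totals instead of TMM factors changed the split most, to 5727 genes higher and 1822 lower over the transcriptome. For the dioxygenase genes it gave 13 higher and 7 lower. In the context lists 72 genes were called, against 39 with TMM factors, and both counts include KDM3A, KDM4B and KDM4C. Over all 12701 tested genes 7549 were called, against 6615. Log2 fold changes then turned to 0.012 for KDM3B and for JMJD1C, 0.10 for KDM4A, 0.163 for PHF8, 0.131 for JMJD4 and 0.031 for ALKBH1, since that scaling moves the median of all genes by 0.17. At an adjusted p of 0.01, 12 dioxygenase genes were called, 2 higher and 10 lower. Of all 12701 tested genes 2547 were then higher and 2548 lower. Leaving out 1 library at a time gave 2 to 6 dioxygenase genes higher, 12 to 14 lower and 14 to 20 called in all. There were 2 higher without AA2P replicate 2 and 3 without control replicate 1 or 2. Over all 12808 to 13005 tested genes the same omissions gave 2869 to 3438 higher, 2845 to 3437 lower and 5715 to 6875 called. With all libraries these counts were 3302, 3313 and 6615 of 12701. KDM3B and JMJD6 passed without AA2P replicate 1. PHF8, near 0 throughout, then ran from -0.042 to 0.022 and ALKBH4 from -0.077 to 0.11, and ALKBH4 was at -0.005 with no filter. The cause was not tested. DESeq2 size factors, the DESeq2 Wald test, limma-voom and a filter of 1 CPM in 3 libraries changed no call of the 32 dioxygenase genes. Replicate numbers gave no sign of pairing, with correlations of same-numbered deviations of -0.055 to -0.017 and none of the libraries closest to its own number. With 3 libraries per group a weak pairing could be missed. With the replicate block 6204 genes and 18 dioxygenase genes were called, KDM5A being lost at a log2 fold change of 0.15, and no m6A writer was called. Depth limits ALKBH2, ALKBH4 and HR, which had the fewest reads.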
